A study of Mus musculus with 20 samples.

Results

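Epithelial mucins are heavily O-glycosylated proteins that cover and form the mucus of the gut. They were read here as the summed FPKM (fragments scaled to transcript length and to library size) of the annotated transcripts of Muc1, Muc2, Muc4, Muc13 and Muc20, 5 of the 32945 genes that could be summed from the files. The samples were colon RNA of male C57BL/6 mice, 5 mice in each of 4 groups, and every mouse had 1 library. Control mice received double distilled water by gavage for 91 days. PZH mice received Pien Tze Huang (PZH), a traditional Chinese compound medicine, at 250 mg/kg a day for the same time. Model mice were injected on the first day with the carcinogen azoxymethane (AOM, 12.5 mg/kg) and, starting 7 days later, repeated cycles of 2% dextran sulfate sodium (DSS) in the drinking water for 5 days, with double distilled water by gavage. Model + PZH mice received AOM, DSS and PZH. AOM/DSS gives inflammation followed by colon tumours, and each sample is a mixture of cell types, so fewer cells of a type and less RNA per cell cannot be told apart. The age of the mice is not given in the sources used here.

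Muc2 is the gel-forming mucin that goblet cells secrete and that builds the mucus layer of the colon. Muc1, Muc4, Muc13 and Muc20 span the membrane of epithelial cells and line its luminal face. They carry large glycosylated ectodomains that proteases can shed, and several of them meet receptor tyrosine kinases or catenins at the membrane: the tail of Muc1 binds beta-catenin, Muc4 is a partner of ErbB2, and Muc20 has been linked to the HGF receptor Met. Muc1 is low in normal colon and is well known as a mucin of inflamed and tumour epithelium.

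The estimated depth was 15.4 to 19.4 M fragments a library (M for 1e6). Colon epithelial genes were high in every mouse, which bears on the label because one protocol line names the abdominal aorta. The sum of 10 epithelial markers was 4413 to 6044 FPKM in Control, 4486 to 5083 in PZH, 3713 to 4413 in Model and 3140 to 4673 in Model + PZH. A pair of further markers could not be used in this way: Epcam was under 1 FPKM in 13 of 20 mice, all 5 Control mice included, and Krt8 in 8, and whether their fragments lie in the assembled transcripts that carry no gene name (12.1% to 14.8% of all FPKM) was not tested. Control mice 17 and 50 stood apart by squamous keratins of the anorectal lining, with Krt5 at 33.9 and 20.9 FPKM against at most 3.21 in the other mice. Model + PZH mouse 35 stood apart from its group: its Mmp7 was 504 FPKM, inside the Model range of 191 to 598, while the other 4 mice of the group had 5.64 to 127.

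The genes lie at 3 places in the mouse genome (GRCm38, GENCODE M21). Muc1 (ENSMUSG00000042784.9) is at chr3:89229057-89233381 on the plus strand, and Muc2 (ENSMUSG00000025515.15) at chr7:141690340-141754693 on the plus strand. Chromosome 16 holds Muc4 (ENSMUSG00000079620.13) at chr16:32735886-32782391 on the plus strand, Muc20 (ENSMUSG00000035638.14) at chr16:32777419-32797435 on the minus strand and Muc13 (ENSMUSG00000022824.12) at chr16:33794037-33819934 on the plus strand. The ends of Muc4 and Muc20 overlap tail to tail, with 627 exonic bases in common, 5.3% of the exonic bases of Muc4 and 15.6% of those of Muc20. The library kit is not stated to keep strand, so fragments from those bases cannot be told apart.

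Upstream sequences are shown for the 2 members that rose in Model and for Muc2, to let the promoters be compared. They are the 250 bases before the RefSeq start (GRCm38.p6), 5′ to 3′ on the strand of the gene: chr3:89228806-89229055 (plus) for Muc1, chr16:32797436-32797685 (minus) for Muc20 and chr7:141690090-141690339 (plus) for Muc2. Capitals mark matches, on either strand, to the letters TATAAA of the TATA box. They also mark GGGCGG, the GC box of Sp1-type factors. CCACCC stands for the box that KLF factors bind. The 2 further motifs searched were TTCNNNGAA for STAT factors and TCAAAG for TCF/LEF factors.
Muc1: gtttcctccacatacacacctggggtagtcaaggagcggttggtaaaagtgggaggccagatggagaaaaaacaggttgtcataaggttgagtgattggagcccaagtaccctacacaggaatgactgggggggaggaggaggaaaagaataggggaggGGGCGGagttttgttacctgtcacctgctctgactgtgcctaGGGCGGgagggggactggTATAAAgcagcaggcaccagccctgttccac
Muc20: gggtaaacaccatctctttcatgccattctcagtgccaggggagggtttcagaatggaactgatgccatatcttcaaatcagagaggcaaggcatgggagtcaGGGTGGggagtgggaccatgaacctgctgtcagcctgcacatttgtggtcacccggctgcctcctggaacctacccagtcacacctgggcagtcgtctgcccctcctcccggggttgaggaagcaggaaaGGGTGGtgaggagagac
Muc2: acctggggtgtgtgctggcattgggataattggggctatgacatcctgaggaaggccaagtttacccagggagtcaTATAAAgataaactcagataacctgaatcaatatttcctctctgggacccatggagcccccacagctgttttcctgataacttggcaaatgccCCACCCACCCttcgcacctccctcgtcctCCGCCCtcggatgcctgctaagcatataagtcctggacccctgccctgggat
Muc1 had the TATA letters 31 bases before its start and 2 GC boxes. Muc20 had neither, and had 2 CACCC matches. Muc2 had the TATA letters further out, at 174 bases before its start, 1 GC box and 2 CACCC matches whose letters overlap. Only the exact letters TATAAA were searched, and the Muc2 window also holds the near match tataag closer to its start. No STAT or TCF/LEF letters lay in these 3 windows. Over all 32851 RefSeq windows of this length, 12.4% held the TATA letters, 32.7% a GC box, 28.1% a CACCC match, 7.02% the STAT letters and 13.8% the TCF/LEF letters. These matches describe letters only.

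The members spanned more than 3 orders of magnitude. In summed FPKM, Muc2 was above Muc13 in 20 of 20 mice and Muc13 above Muc1 in 19. Muc1 was above Muc4 in 17 and Muc4 above Muc20 in 17. The Muc2 sum counts a Muc2 mRNA more than once, as set out below. In Model + PZH mouse 35 its highest piece, Muc2-207, was 247 FPKM against 304 for Muc13, so there the order rests on the sum. In Control, Muc2 averaged 482 ± 313 FPKM (SD, n = 5), Muc13 84.9 ± 123, Muc1 3.18 ± 1.28, Muc4 2.09 ± 1.14 and Muc20 0.456 ± 0.221. The ranges of the neighbours Muc2 and Muc13 overlapped in Control, as did those of Muc1 and Muc4, while Muc4 and Muc20 were separate. Muc2 made up 56.1% to 99.5% of the summed FPKM of the 5 members over the 20 mice, a share raised by the repeated count.

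**Figure D1:**
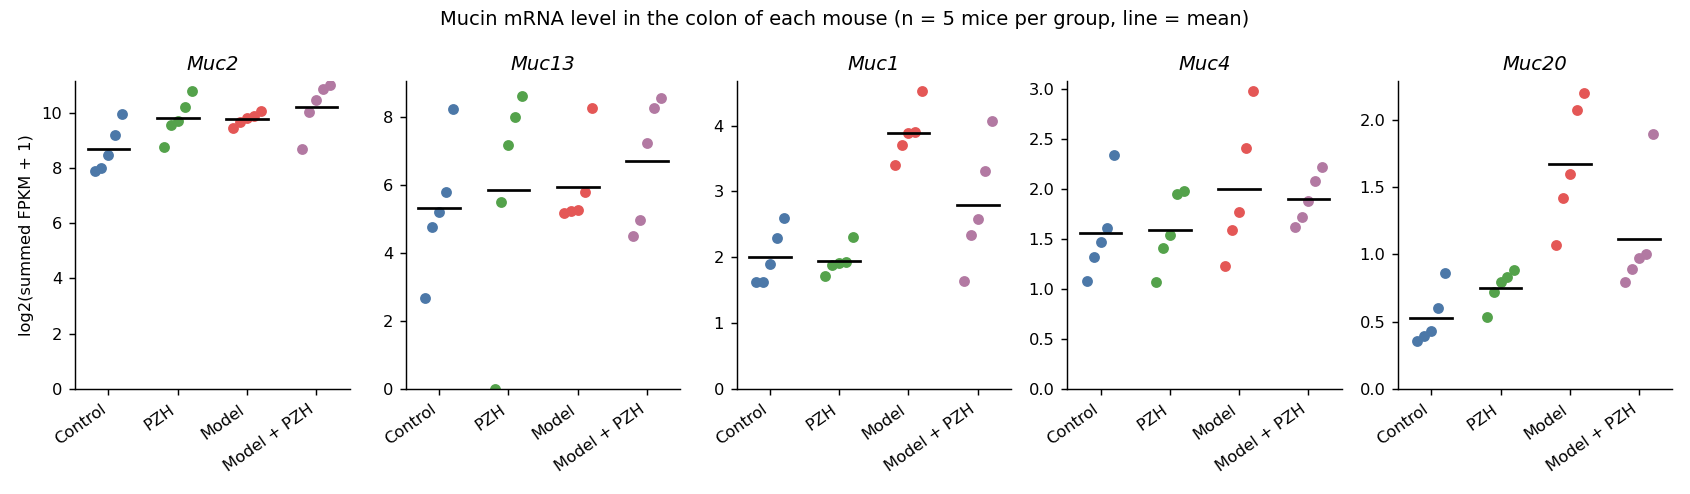
Summed FPKM of each mucin gene in each mouse, as log2(FPKM + 1) on the y axis with a scale of its own in each panel, for the 4 groups on the x axis (5 mice each, points are mice, the line is the mean of the log2 values). The 5 Model mice lie above all 5 Control mice for Muc1 and Muc20, and 1 Model + PZH mouse (35) lies with the Model mice for both.

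The comparison of Model with Control asks what AOM/DSS did to the mucins. Muc1 and Muc20, both membrane mucins, rose in Model, and Muc2, Muc4 and Muc13 did not pass the test. Muc1 went from 3.18 ± 1.28 FPKM in Control to 14.3 ± 4.69 in Model, and Muc20 from 0.456 ± 0.221 to 2.32 ± 1.04 (SD, n = 5 each). Thus 2 of 5 members were higher at an adjusted P under 0.05 and none lower, in a comparison in which 23.7% of the 15802 genes tested were called (16.4% higher and 7.23% lower). Of those genes, 2596 were higher and 1143 lower, and after median-of-ratios scaling 1923 of 3522 called genes were higher. The median log2 fold change was 1.07 over the 5 members and 0.09 over all genes. Tests were limma on log2(FPKM + 1) with Benjamini-Hochberg adjustment over all genes tested, and fold changes are on that scale, which understates the change of low genes.

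Muc1 was 5.04, 2.1, 2.09, 2.73 and 3.92 FPKM in Control mice 17, 37, 41, 48 and 50. In Model mice 23, 30, 33, 44 and 52 it was 13.8, 13.9, 9.58, 22.1 and 12.1 FPKM. The groups did not overlap, as for 18.5% of all genes tested in either direction, and the lowest Model mouse was above the highest Control mouse. The log2 fold change was 1.87 ± 0.24 (SE, adjusted P = 4.52e-04), 3.67-fold on the scale of the test. Nearly all of the signal lay in Muc1-201, the 7-exon coding transcript, with an estimated 81 to 181 fragments a mouse in Control and 407 to 802 in Model. Tested alone among 40464 transcripts, of which 6.94% were called, Muc1-201 was higher by 1.88 ± 0.26 (log2, SE, adjusted P = 0.00213).

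Muc20 was 0.314, 0.35, 0.815, 0.521 and 0.281 FPKM in the same Control mice. It was 2.03, 1.10, 1.68, 3.21 and 3.58 FPKM in the Model mice. Again the lowest Model mouse lay above the highest Control mouse. The log2 fold change was 1.14 ± 0.21 (SE, adjusted P = 0.00346), 2.21-fold on the scale of the test. In Control only mice 41 and 48 reached 0.5 FPKM. Muc20 thus met the filter on low values only through the Model mice, so its adjusted P is no independent support. Without Control mice 17 and 50 both calls remained, with a log2 fold change of 2.16 for Muc1 (adjusted P = 7.41e-04) and 1.04 for Muc20 (adjusted P = 0.0281).

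The 2 annotated transcripts of Muc20 share the start of the gene and differ at the 3′ end. Muc20-202 (3673 nt) runs into the exons of Muc4 and shares 17.1% of its bases with them, and Muc20-201 (2299 nt) ends before Muc4 and shares none. Muc20-201 was 0.073, 0, 0.101, 0 and 0.026 FPKM in Control and 1.55, 0.212, 1.12, 2.63 and 2.89 in Model. In fragments this was an estimated 0 to 4 a mouse against 8 to 117. Muc20-202 was 0.241, 0.35, 0.714, 0.521 and 0.256 FPKM in Control and 0.485, 0.886, 0.563, 0.578 and 0.688 in Model. The Model mice thus stood apart in the transcript that has no base in common with Muc4, and overlapped Control in the one that has.

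The difference in means was 1.64 FPKM for Muc20-201 (exact permutation test, two-sided, P = 0.00794, the smallest that 5 against 5 mice allow) and 0.223 FPKM for Muc20-202 (exact permutation P = 0.0952). Muc20-201 made up 65 ± 26.2% of Muc20 in Model and 8.94 ± 9.7% in Control (SD, n = 5, exact permutation P = 0.0159). These tests were added after the values were seen, and over their family of 12 the adjusted P was 0.0952 for Muc20-201, 0.202 for Muc20-202 and 0.0952 for the share. A single test at the smallest P could not pass in a family of that size. Muc20-201 did not pass the filter on low values in this comparison. With no filter its log2 fold change was 1.25 ± 0.29 (SE, limma, adjusted P = 0.0714) among 112229 transcripts, of which 1.74% were called.

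Muc2 was 252, 356, 982, 588 and 234 FPKM in Control and 938, 891, 1053, 687 and 816 FPKM in Model. The Model mice lay close together, and the highest Control mouse (41) was above 4 of the 5 Model mice. By limma the log2 fold change was 1.07 ± 0.36 (SE, adjusted P = 0.0513), 2.1-fold and not past the threshold. Single mice decided this value. Without Control mouse 41 the log2 fold change was 1.38 with an adjusted P of 0.00581, and without Control mice 17 and 50 it was 0.56 with an adjusted P of 0.234.

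Mice 17 and 50 were the 2 lowest Control mice for Muc2 and also had the lowest goblet marker sums of that group, 4186 and 3614 FPKM against 7521 to 8384 in the other 3. Their sums of 9 squamous markers were 421 and 329 FPKM against 4.49 to 6.86, and mouse 50 had the highest sum of 7 smooth muscle markers, 5198 FPKM. The part of tissue makeup in the Muc2 values was not tested.

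GENCODE M21 holds Muc2 only as 8 partial transcripts, so the sum counts a Muc2 mRNA more than once. The pieces were compared for this reason. Muc2-207, which covers the 3′ end in 19 exons, was the highest piece in every mouse, at 133 to 574 FPKM in Control and 372 to 634 in Model. Muc2-204, the 5′ piece of 20 exons, was 40.2 to 173 FPKM in Control and 113 to 186 in Model. The ratio of the 5′ piece to the 3′ piece was 0.264 ± 0.0631 in Control, 0.279 ± 0.0908 in PZH, 0.299 ± 0.0361 in Model and 0.304 ± 0.0313 in Model + PZH (SD, n = 5). Their log2 fold changes in Model were 1.17 ± 0.36 for Muc2-204 (SE, adjusted P = 0.0855) and 0.98 ± 0.37 for Muc2-207 (adjusted P = 0.161). A piece of 447 nt, Muc2-208, had an estimated 1 or 2 fragments in all 5 Control mice and reached 27.5 FPKM in PZH mouse 8, 45.5 in Model mouse 44, and 88.5, 147 and 144 in Model + PZH mice 2, 15 and 36. This on and off pattern entered the Muc2 sum of those mice.

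**Figure D2:**
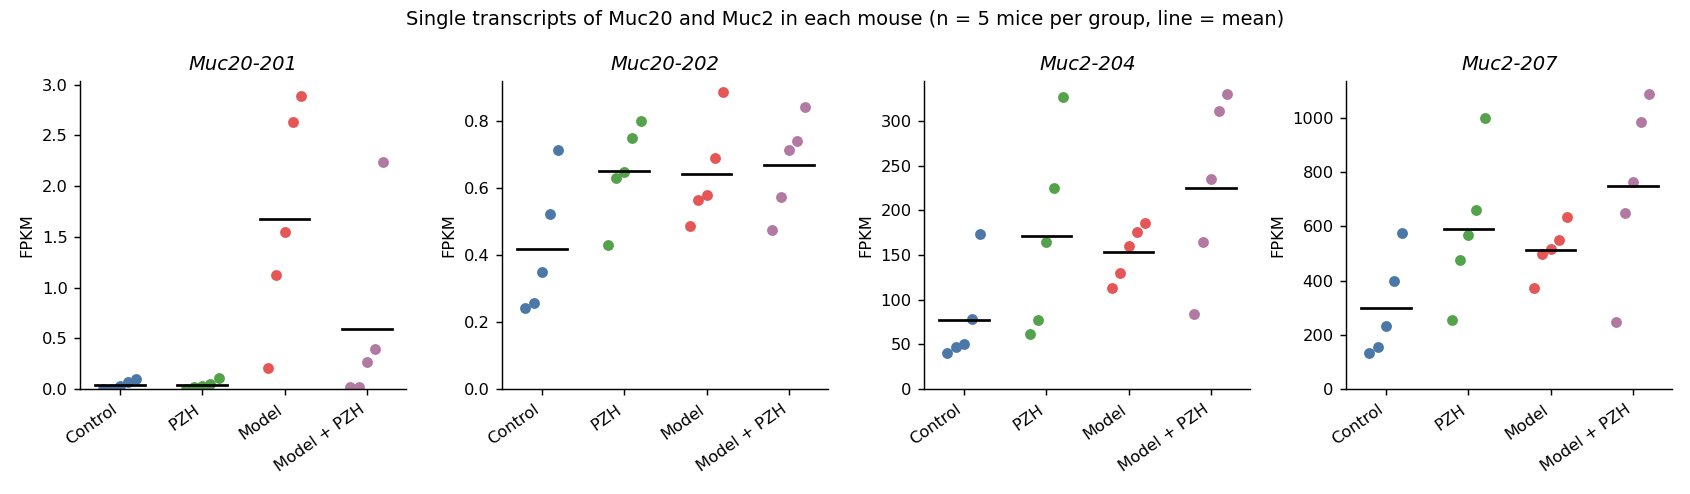
FPKM of single annotated transcripts in each mouse (y axis starting at 0 with a scale of its own in each panel) for the 4 groups (5 mice each, points are mice, the line is the mean). Muc20-201 is at most 0.107 FPKM in the 10 Control and PZH mice and between 0.212 and 2.89 in the Model mice, Muc20-202 overlaps between groups, and the 5′ piece Muc2-204 is below the 3′ piece Muc2-207 in every mouse, at 0.135 to 0.352 of its value.

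Muc4 was 1.12, 1.5, 4.04, 2.05 and 1.76 FPKM in Control and 2.01, 1.35, 4.30, 6.89 and 2.40 FPKM in Model. Mice 33 and 44 were the only Model mice above the Control range. The log2 fold change was 0.43 ± 0.34 (SE, adjusted P = 0.397), with a 95% interval of -0.31 to 1.18. Its long transcripts traded places between mice. Muc4-206, a transcript of 10805 nt, was 4.38 FPKM in Model mouse 44 and 0.004 in Model mouse 52, where Muc4-205 was 1.57.

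Muc13, a membrane mucin of the intestine, varied most between mice of a group. In Control it was 54.7, 26.1, 36, 303 and 5.38 FPKM, and in Model 37.3, 36.5, 54.3, 307 and 35.6. In PZH it was 44.5, 0.00523, 256, 144 and 395 FPKM in mice 8, 14, 27, 46 and 53, and in Model + PZH 150, 374, 21.6, 304 and 30.6 in mice 2, 13, 15, 35 and 36. Low and high mice occurred in every group, so the spread lay inside the groups. The split lay in Muc13-202, which ran from 0 to 393 FPKM, while the other transcript, Muc13-201, was 1.37 to 5.38 FPKM in the 19 mice other than PZH mouse 14. Epcam, listed at 0 or at 233 to 865 FPKM, had a split of the same kind. Whether fragments of Muc13 lie in unnamed assembled transcripts was not tested. The log2 fold change in Model was 0.61 ± 0.93 (SE, adjusted P = 0.684), with a 95% interval of -1.44 to 2.66.

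The comparison of Model + PZH with Model asks what PZH did in mice given AOM/DSS. Muc1 and Muc20 had lower means, and with all 10 mice none of the 5 members passed the test. In this comparison 0.0063% of 15878 genes were called, 1 gene in all, and 11.7% had an unadjusted P under 0.05, among them 1 member. Muc1 was 4.08, 2.11, 4.97, 15.7 and 8.93 FPKM in Model + PZH mice 2, 13, 15, 35 and 36. Mice 2, 13, 15 and 36 lay below the lowest Model mouse (9.58), and mouse 35 lay above 4 of the 5. In limma the change was -1.10 ± 0.40 (log2, SE, adjusted P = 0.365), with a 95% interval of -1.99 to -0.21.

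Mouse 35 decided the call. Without it, the log2 fold change of Muc1 was -1.42 ± 0.33 (SE, limma, adjusted P = 0.0393), and 5.17% of all genes were called. Leaving out each of the other 9 mice in turn left the adjusted P above the threshold. Mouse 35 had the highest Muc1 of its group, so the fit without it shows the weight of a single mouse and is no independent support for a fall.

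Muc20 was 0.733, 0.858, 1.00, 2.72 and 0.966 FPKM in the same Model + PZH mice. The 4 mice other than mouse 35 lay below the lowest Model mouse (1.10). The change by limma was -0.56 ± 0.26 (log2, SE, adjusted P = 0.44). Muc20-201 was 0.021, 0.019, 0.265, 2.24 and 0.394 FPKM in these mice, so mouse 35 again had the value of a Model mouse. Muc20-201 was lower by 0.79 on the log2 scale (a log2 fold change of -0.79 ± 0.39, SE, adjusted P = 0.609) among 41170 transcripts, of which 0.0219% were called.

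Muc2 went the other way in its mean, without passing the test. It was 1417, 1025, 2026, 413 and 1853 FPKM in Model + PZH, and mice 2, 15 and 36 were above every Model mouse, while mouse 35 was below every one. The log2 fold change was 0.44 ± 0.38 (SE, adjusted P = 0.666), with a 95% interval of -0.40 to 1.28. Without mouse 35 the change of Muc2 was 0.82 ± 0.21 (log2, SE, limma, adjusted P = 0.0573), and that of Muc20 was -0.76 ± 0.22 (adjusted P = 0.0826). Muc4 was 2.3, 2.68, 3.65, 2.06 and 3.21 FPKM, inside the Model range, with a log2 fold change of -0.09 ± 0.30 (SE, adjusted P = 0.931). Thus mouse 35 was the highest of its group for Muc1 and Muc20 and the lowest for Muc2 and Muc4.

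The comparison of PZH with Control asks what PZH did in mice not given AOM/DSS. None of the 5 members passed the test, and 0.00645% of 15496 genes were called, 1 gene in all, with 8.84% at an unadjusted P under 0.05. Muc2 had the clearest difference in means, 987 ± 507 FPKM in PZH against 482 ± 313 in Control (SD, n = 5). It was 434, 1164, 827, 746 and 1766 FPKM in the PZH mice, so that mice 14 and 53 lay above the Control range and the other 3 inside it. By limma the change was 1.10 ± 0.45 (log2, SE, adjusted P = 0.545), and 0.59 without Control mice 17 and 50 (adjusted P = 0.809). Muc1 was 2.76, 2.29, 2.69, 3.96 and 2.81 FPKM, with a log2 fold change of -0.06 ± 0.21 (SE, adjusted P = 0.944) and a 95% interval of -0.51 to 0.39. Muc20 was 0.45, 0.736, 0.782, 0.646 and 0.849 FPKM, with a log2 fold change of 0.22 ± 0.12 (SE, adjusted P = 0.609). Muc4 was 1.10, 2.95, 1.90, 2.85 and 1.65 FPKM, with a log2 fold change of 0.02 ± 0.25 (SE, adjusted P = 0.985).

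Among mice given PZH, Model + PZH was compared with PZH. Here 2.41% of 15626 genes were called and none of the 5 members, and no member had an unadjusted P under 0.05, against 20.9% of all genes. Muc1 was 7.15 ± 5.38 FPKM against 2.90 ± 0.625 (SD, n = 5), with 4 of 5 Model + PZH mice above the highest PZH mouse and mouse 13 below the lowest. It was higher by 0.84 ± 0.38 (log2, SE, limma, adjusted P = 0.241). Muc20 was 1.26 ± 0.823 FPKM against 0.693 ± 0.154, with a log2 fold change of 0.36 ± 0.20 (SE, adjusted P = 0.326). Muc2 was 1347 ± 651 against 987 ± 507 FPKM (log2 fold change 0.41 ± 0.47, SE, adjusted P = 0.66).

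Set against Control, Model + PZH had log2 fold changes of 1.51 ± 0.49 for Muc2 (SE, adjusted P = 0.123), 0.77 ± 0.40 for Muc1 (adjusted P = 0.301) and 0.58 ± 0.20 for Muc20 (adjusted P = 0.142). None of the 5 members passed, where 2.42% of 15606 genes were called. With the spread estimated from all 20 mice, Muc2 passed (adjusted P = 0.0372), and 9.63% of all genes were then called. Without Control mice 17 and 50, the lowest of that group for Muc2, the log2 fold change of Muc2 was 0.99 (adjusted P = 0.406).

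An interaction over all 20 mice tested whether the PZH effect depended on AOM/DSS, and in it 0.0118% of 16926 genes were called. None of the 5 members passed, and 2 had an unadjusted P under 0.05, against 10.3% of all genes. The interaction was -1.04 ± 0.47 for Muc1 (log2, SE, adjusted P = 0.467) and -0.79 ± 0.30 for Muc20 (adjusted P = 0.395). Without Model + PZH mouse 35 it was -0.98 for Muc20 with an adjusted P of 0.0405, while 2.84% of all genes were called. For Muc1 it was -0.75 to -1.36 over the 20 fits that left out 1 mouse each, with adjusted P from 0.0771 to 0.687.

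**Figure D3:**
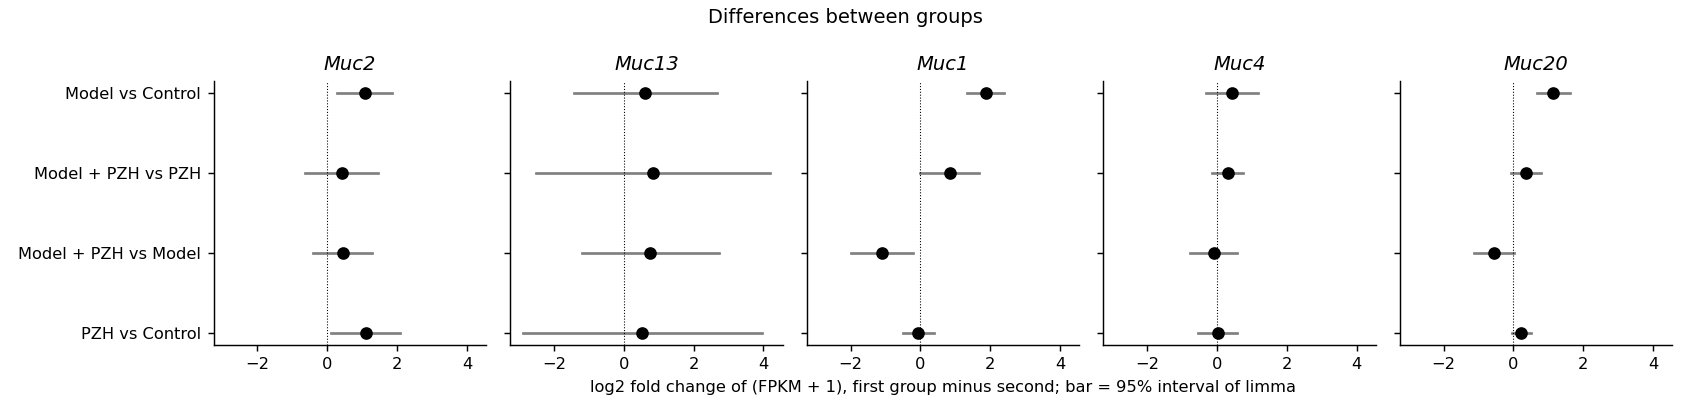
Difference between groups for each mucin, as log2 fold change of (FPKM + 1) on the x axis, for 4 comparisons on the y axis (point, estimate of limma, bar, 95% interval, 5 mice a group). The intervals of Muc1 (1.33 to 2.41) and Muc20 (0.67 to 1.61) lie furthest from 0 in Model vs Control, and those of Muc13 are the widest.

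The members were also expressed relative to the epithelium of the same mouse, as log2(FPKM + 1) minus the mean of 12 epithelial markers. By exact permutation tests (two-sided, 5 against 5 mice, 20 tests), none of the 20 differences had an adjusted P under 0.05. The nearest was Muc1 in Model vs Control, higher by 1.19 (-4.00 ± 0.90 in Model, -5.19 ± 0.70 in Control, SD, n = 5, exact permutation P = 0.0635, adjusted P = 0.741). The list includes Epcam and Krt8, whose values ran from 0 to 865 and from 0.0706 to 3071 FPKM. Without them, in an alternative chosen after their values were seen, Muc1 in Model was higher by 1.74 with no overlap of the groups (exact permutation P = 0.00794, adjusted P = 0.159). Muc20 was then higher by 1.01 (exact permutation P = 0.0159, adjusted P = 0.159). The smallest P that 5 against 5 mice allow is 0.00794, and over 20 tests a single result at that P has an adjusted P of 0.159. An adjusted P under 0.05 was thus out of reach unless several tests sat at the smallest P, so the lack of calls says little.

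Other mucins were scarce. Of 20 listed, 10 had rows that could be summed and 2 reached 0.5 FPKM in at least 5 mice. These were the membrane mucins Muc3 (0.765 to 4.66 FPKM over the 20 mice) and Muc3a (3.02 to 9.96), which are near copies of each other and may share fragments. Neither passed the test in Model vs Control (log2 fold change -0.35 ± 0.26 for Muc3, adjusted P = 0.36, and -0.15 ± 0.26 for Muc3a, adjusted P = 0.723, SE). Muc5ac and Muc5b, the gel-forming mucins of stomach and airway, were at most 0.0106 and 0.0161 FPKM in any mouse, and Muc6 at most 0.82.

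Of 44 enzymes and suppliers of O-glycan synthesis tested in Model vs Control, 5 were higher, 7 lower and 32 did not pass, with a median log2 fold change of -0.01. The share called, 27.3%, was near the 23.7% of all genes, so the count says little about this list. Of the starting enzymes, which put the first GalNAc on the mucin chain, Galnt1 (0.96 ± 0.08, adjusted P = 2.42e-05), Galnt3 (0.79 ± 0.13, adjusted P = 0.00194) and Galnt2 (0.61 ± 0.10, adjusted P = 0.00222) rose (log2, SE, limma). Galnt6 was lower (-0.48 ± 0.14, adjusted P = 0.0343), a call that was lost without Control mice 17 and 50 (-0.37 ± 0.16, adjusted P = 0.159). St3gal1, which caps core 1 with sialic acid, rose by 1.20 ± 0.13 (adjusted P = 1.30e-04), and Gcnt4, a branching enzyme, by 1.08 ± 0.10 (adjusted P = 4.94e-05). In Control, Gcnt4 reached 0.5 FPKM only in mice 37 and 48 (0.602 and 0.612). It met the filter on low values only through Model, so its adjusted P is no independent support. Among those that fell were genes of sulfate supply, the sulfate transporter Slc26a2 (-1.42 ± 0.30, adjusted P = 0.00694) and the sulfate donor synthase Papss1 (-1.08 ± 0.19, adjusted P = 0.00238). The sialyltransferase St6galnac4 also fell (-0.92 ± 0.20, adjusted P = 0.00828). B3gnt5 passed with all mice (-0.95 ± 0.31, adjusted P = 0.0479) and not without Control mice 17 and 50 (-0.94 ± 0.40, adjusted P = 0.139).

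Genes of mucin folding, secretion and the mucus itself gave 8 higher, 2 lower and 22 not passing of 32 tested. The share called was 31.2%, against 23.7% of all genes. Itln1, a lectin of goblet and Paneth cells, was 0.525 ± 0.256 FPKM in Control and 207 ± 109 in Model (adjusted P = 5.97e-07). In Control only mice 37 and 41 reached 0.5 FPKM (0.863 and 0.699). Itln1 thus met the filter on low values only through Model, so its adjusted P is no independent support. Retnlb, a goblet cell protein, rose by 2.59 ± 0.72 (log2, SE, adjusted P = 0.0246) and Spink4, a goblet cell peptide, by 1.29 ± 0.24 (adjusted P = 0.0037). The crosslinking enzyme Tgm3 fell from 393 ± 81.1 to 62.1 ± 24.1 FPKM (log2 fold change -2.70 ± 0.24, adjusted P = 3.51e-05), and Nlrp6, an inflammasome sensor, by 1.04 on the log2 scale (-1.04 ± 0.19, adjusted P = 0.00309). Without Control mice 17 and 50, 7 were higher and 8 lower, in a fit that called 17.8% of all genes. Retnlb then no longer passed (1.94 ± 0.81, adjusted P = 0.136). Zg16, a lectin of the inner mucus layer, was then lower (-1.12 ± 0.28, adjusted P = 0.0289), as was the chloride channel Cftr (-1.31 ± 0.26, adjusted P = 0.0113).

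Transcription and fate factors of secretory and intestinal cells gave 2 higher, 5 lower and 13 not passing of 20 tested. The share called was 35%, against 23.7% of all genes. Gata5 was at most 0.0785 FPKM in Control and 6.25 to 14.9 in Model (adjusted P = 3.77e-06). It met the filter on low values only through the Model mice, so its adjusted P is no independent support. Notch1 rose by 0.95 ± 0.19 (log2, SE, adjusted P = 0.0048). Klf4, a factor of goblet cell maturation, fell (-1.32 ± 0.20, adjusted P = 0.00128), as did Nr5a2 (-1.08 ± 0.32, adjusted P = 0.0306), Hnf4a (-0.71 ± 0.16, adjusted P = 0.0109), Cdx1 (-0.62 ± 0.15, adjusted P = 0.0131) and Dll1 (-0.62 ± 0.17, adjusted P = 0.0266). Atoh1, the master factor of secretory cells, had a log2 fold change of -0.24 ± 0.27 (adjusted P = 0.57) with all mice and of -0.68 ± 0.17 (adjusted P = 0.0256) without Control mice 17 and 50. Without these mice Foxa2 (-0.83 ± 0.17, adjusted P = 0.0139) and Cdx2 (-1.45 ± 0.42, adjusted P = 0.045) were also lower, and Dll1 no longer passed (-0.64 ± 0.20, adjusted P = 0.0559). In all 7 factors were then lower, where 17.8% of all genes were called. With 1 mouse left out at a time, between 1 and 3 factors were higher and between 3 and 6 lower. In these fits 16.3% to 22.8% of all genes were called.

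Genes listed for mucin cleavage and turnover, proteases among them, gave 5 higher, 1 lower and 6 not passing of 12 tested. The share called was 50%, against 23.7% of all genes. Mmp7, a matrix protease, was listed at 0 in all 10 Control and PZH mice and was 191 to 598 FPKM in Model (adjusted P = 8.71e-08). It met the filter on low values only through Model, so its adjusted P is no independent support. Plet1 rose by 4.83 ± 0.56 (log2, SE, adjusted P = 1.97e-04), Mmp14, a membrane metalloprotease, by 1.63 ± 0.14 (adjusted P = 3.32e-05) and Adam10, a sheddase, by 1.07 ± 0.14 (adjusted P = 4.41e-04). The protease Mep1a, meprin alpha, fell from 96.4 ± 26.3 to 28.4 ± 12.9 FPKM (-1.78 ± 0.27, adjusted P = 0.00108). Without Model mouse 44 or without Model mouse 52, 3 were higher, and without Control mice 17 and 50, 4 were. The shares of all genes called in these fits were 16.3%, 16.9% and 17.8%.

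Partners of the membrane mucins gave 4 higher, 4 lower and 13 not passing of 21 tested. The share called was 38.1%, against 23.7% of all genes. Without Control mice 17 and 50 they gave 6 higher and 3 lower, in a fit that called 17.8% of all genes. Lgals9 (1.17 ± 0.14, adjusted P = 3.03e-04), a galectin, rose, as did Msn, the membrane linker moesin (0.84 ± 0.11, adjusted P = 4.46e-04), Hgf, the ligand of Met (0.59 ± 0.19, adjusted P = 0.0442) and Ctnnb1, beta-catenin (0.52 ± 0.11, adjusted P = 0.00818; log2, SE). Lgals3, the galectin that binds Muc1, fell (-1.22 ± 0.24, adjusted P = 0.00444), and so did the linkers Slc9a3r1 (-0.99 ± 0.15, adjusted P = 0.00124) and Ezr (-0.66 ± 0.15, adjusted P = 0.0102) and the kinase Prkcd (-0.56 ± 0.14, adjusted P = 0.0156). Without Control mice 17 and 50 Prkcd no longer passed (-0.45 ± 0.16, adjusted P = 0.0836). Met, the receptor linked to Muc20, had a log2 fold change of 0.58 ± 0.21 (adjusted P = 0.0631), and of 0.79 ± 0.22 (adjusted P = 0.0413) without those mice. That of Erbb2, the partner of Muc4, was -0.22 ± 0.16 (adjusted P = 0.344).

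In Model + PZH vs PZH, 3 of these genes passed the test, all higher: Lgals9 (1.35, adjusted P = 0.0128), Mmp7 (adjusted P = 0.0277) and Plet1 (3.73, adjusted P = 0.0365). Of all genes, 2.41% were called in this comparison. Mmp7, at 0 in every PZH mouse, met the filter on low values only through Model + PZH. Without mouse 35, 1 gene of the cleavage and turnover list and 1 of the partner list passed, where 1.66% of all genes were called. Mmp7, above 0 in only 4 of the mice left, was then not tested. In Model + PZH vs Model, none of the listed genes passed with all mice. Without Model + PZH mouse 35, 2 enzymes of O-glycan synthesis were higher and 1 lower, 3 mucus genes were higher and 3 lower, 1 fate factor and 3 proteases were lower, and no partner passed. The lower genes included Itln1 (-3.93 ± 0.77, adjusted P = 0.0228), Mmp7 (-3.81 ± 0.76, adjusted P = 0.024), Gata5 (-2.69 ± 0.30, adjusted P = 0.00553), Mmp14 (-1.07 ± 0.14, adjusted P = 0.00677), Tgm2, a transglutaminase (-0.97 ± 0.14, adjusted P = 0.00745), Adam10 (-0.69 ± 0.14, adjusted P = 0.0276) and Gcnt4 (-0.66 ± 0.15, adjusted P = 0.037; log2, SE, limma). The higher genes were St6galnac6 (1.09 ± 0.24, adjusted P = 0.0334), Cftr (1.05 ± 0.20, adjusted P = 0.0207), B4galt4 (0.96 ± 0.22, adjusted P = 0.0417), Nlrp6 (0.95 ± 0.22, adjusted P = 0.0374) and Creb3l1 (0.64 ± 0.14, adjusted P = 0.0325). In that fit 5.17% of all genes were called. Mouse 35 drew notice by its own high Mmp7 (504 FPKM), and it was also high in Itln1 (273) and Gata5 (16). The calls without it therefore rest on a choice made from these same values and are no independent support for a fall.

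Other cell types moved in the same comparison and their part in the mucin values was not tested. All 6 Paneth-type markers were higher in Model, with sums of 1440 to 5305 FPKM against 6.44 to 54.5 in Control, and Model + PZH mouse 35 had 4192. In Control, Mmp7, Defa17 and Defa24 of that list were at 0 in every mouse. They were tested only because of their level in Model. Defa20 also fell short of the filter among Control and PZH mice, where 2 of the 6 markers were tested. The count of 6 was thus partly set by the filter. Of 9 absorptive colonocyte markers 5 were lower (sums of 631 to 1792 FPKM against 3539 to 4732). All 7 smooth muscle markers were lower (1001 to 1746 against 2256 to 5198), 4 of them without Control mice 17 and 50, and 5 of 7 myeloid markers tested were higher (367 to 887 against 174 to 359). Of 8 goblet markers, 1 was higher and 7 did not pass, with sums of 4577 to 8214 FPKM in Model and 3614 to 8384 in Control. The Control sums without mice 17 and 50 were 7521 to 8384. Model mice 30, 33, 44 and 52 lay below these (4577 to 6097), and Model mouse 23 lay inside (8214). Without Control mice 17 and 50, Spink4 was still higher (0.91 ± 0.17, adjusted P = 0.00768) and Zg16 was lower, as given above. Of 11 epithelial markers tested, 3 were lower and 1, Cldn4, higher, and without Control mice 17 and 50 only 1 was lower. None of 7 squamous markers tested passed with all mice. Without those mice all 5 tested were higher, among them Krt14 (3.17 ± 0.46, adjusted P = 0.00276) and Krt13 (2.44 ± 0.31, adjusted P = 0.00156), with sums of 30 to 59.3 FPKM in Model against 4.49 to 6.86 in the other 3 Control mice. Mice 17 and 50 were left out for these same genes, so the direction was largely set by that choice. Krt13, at 0.256 to 0.527 FPKM in the other 3 Control mice, also met the filter on low values through Model. Of 7 enteric neuron and glia markers 4 were lower (1 of 5 tested without Control mice 17 and 50), and 3 of 7 B and plasma cell markers and 3 of 6 T cell markers were higher (1 of 7 and 0 of 6 without them). Over all genes, 23.7% were called with all mice and 17.8% without those 2 mice.

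Genes with the most similar pattern were found for each member among 14131 genes with a mean of at least 1 FPKM, by Pearson's r of log2(FPKM + 1) over the 20 mice after the mean of each group was taken out. The mice share tissue makeup and depth, so r is a description. Among those of Muc1 were Srd5a1 (r = 0.89), Halr1 (0.88) and the neutrophil-attracting chemokines Cxcl5 (0.88) and Cxcl2 (0.86), with r from 0.94 to 0.96 when group means were kept. For Muc20 they were Tgm4 (0.91), Zfp664 (0.89), F3 (0.89), Cd24a (0.88) and Ext1 (0.88). For Muc2 they were 5330417C22Rik (0.93), Ptprn2 (0.91), Slc2a10 (0.91), Ccn3 (0.87) and Gm9299 (0.87). For Muc4 the highest was Wdr24 (0.81), and for Muc13 Mtfr1 (0.84), both below those of the other 3 members. None of the first 5 genes of a member was another member.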

How the data were processed

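Total RNA of 20 mouse colons was sequenced after ribosomal RNA removal (NEBNext Ultra). The authors aligned reads to mm10 with HISAT2, assembled and merged transcripts with StringTie, and deposited the FPKM of each of 118434 transcripts per mouse. Of these, 96182 are Ensembl transcripts and 22252 are assembled ones with no gene name. The labels also name limma.

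FPKM of the 95984 Ensembl transcripts found in GENCODE M21 were summed per gene. Tests were limma 3.58.1 (trend, R 4.3.3) on log2(FPKM + 1), for genes that reached 0.5 FPKM in 5 or more of the compared mice (10 per comparison, 20 for the interaction), with Benjamini-Hochberg adjustment. FPKM are not counts, so no count model was used. Depth was estimated from the steps of low values of single-transcript genes (29.9% to 44.6% of values within 0.02 of a whole fragment), too few to recover counts. P-values rest on 5 mice a group.

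Members and lists were chosen with earlier results of these data known. The text names the 5 members everywhere, in each pathway list up to 4 genes with the largest rises and 4 with the largest falls past the threshold in Model vs Control, every other mucin of at least 0.5 FPKM in 5 mice, the 5 most similar genes per member, and markers, and beside these, chosen after their values were seen, Galnt2, Galnt6, Cdx1, Dll1, Atoh1, Foxa2, Cdx2, Zg16, Cftr, Tgm2, Met, Erbb2, St6galnac6, B4galt4, Creb3l1, Krt13 and Krt14 (and Itln1, Mmp7, Gata5, Gcnt4, Mmp14, Adam10 and Nlrp6 without mouse 35). A gene of the mucus list and a gene similar to Muc1 are not reported here. Alternatives were another pseudocount, 2 other filters, median-of-ratios scaling, all 20 mice in one model and each mouse left out, and, chosen after seeing the data, the 2 Control mice with squamous keratins left out, 10 epithelial markers in place of 12, and unfiltered transcripts. Scripts were tested on simulated data. Promoter sequences are from RefSeq.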

Additional observations from a re-analysis of the deposited data

Results flagged for a closer look

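In groups of 5, a mouse counts as far from the others when its gap to the nearest is more than 0.71 of the range of the group. This was met in 3 of the 20 groups of mucin values. Chance meets it in about 1 in 20 groups of normally spread values. FPKM are skewed to high values, so 3 of 20 is not read as an excess. Muc13 was 303 FPKM in Control mouse 48, where the other 4 mice had 5.38 to 54.7. Muc13 was 307 FPKM in Model mouse 44, where the other 4 had 35.6 to 54.3. Muc20 was 2.72 FPKM in Model + PZH mouse 35, where the other 4 had 0.733 to 1.00.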

How the results depend on the processing

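No paired analysis was possible because the groups share no mouse number. Values are log2 differences of (FPKM + 1), with adjusted P of limma, and the cause of a change was not tested. Both calls in Model vs Control held under all alternatives run, with 1.71 to 2.16 for Muc1 and 1.01 to 2.08 for Muc20 and an adjusted P of at most 0.0281. Of 506 gene-level alternatives, 476 kept direction and side of the threshold, 5 passed it newly, 25 changed sign and 0 lost a call. Of 494 for single transcripts, 4 passed newly and 20 changed sign. Of 260 relative to epithelial markers, 46 changed sign. None of the sign changes was in a called value.

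Muc2 in Model vs Control passed with genes of at least 1 FPKM in every mouse (1.07, adjusted P = 0.0495) and without Control mouse 41 (range without 1 mouse 0.86 to 1.38), and in Model + PZH vs Control with all 20 mice in one model (1.51). In Model + PZH vs Model, Muc1 passed without Model + PZH mouse 35 (range -1.42 to -0.81), as did the interaction of Muc20 (-0.98 to -0.65). The strict filter gave no value for Muc20.

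Without Control mice 17 and 50, the sign changed for Muc13 in Model vs Control (-0.12), for Muc1 (0.23), Muc4 (-0.17) and Muc13 (-0.21) in PZH vs Control, and for the interaction of Muc4 (0.07). With a pseudocount of 0.1 it changed for Muc13 in PZH vs Control (-0.07, and -0.14 relative to epithelial markers) and for the transcript Muc4-206 in Model vs Control (-0.54).

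Relative to Epcam alone, which is at 0 in many mice, it changed in Model vs Control for Muc1 (-1.95), Muc2 (-2.76) and Muc20 (-2.68), in Model + PZH vs PZH for Muc1 (-0.83) and Muc13 (-0.83), in Model + PZH vs Model for Muc2 (-1.13), Muc4 (-1.66) and Muc13 (-0.81), and in PZH vs Control for Muc2 (-2.62), Muc13 (-3.19) and Muc20 (-3.50). Without Epcam and Krt8 it changed in Model vs Control for Muc4 (0.30) and Muc13 (0.47), in Model + PZH vs PZH for Muc2 (0.39), Muc4 (0.29) and Muc20 (0.34), and in PZH vs Control for Muc1 (0.03) and Muc4 (0.12).

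Leaving out 1 mouse turned the sign of values near 0 or of wide spread. For genes the ranges were, for Muc13, -0.06 to 1.34 in Model vs Control, -0.63 to 1.53 in Model + PZH vs PZH, -0.16 to 1.99 in PZH vs Control and -1.24 to 0.92 in the interaction. For Muc4 they were -0.28 to 0.15 in Model + PZH vs Model, -0.10 to 0.22 in PZH vs Control and -0.31 to 0.13 in the interaction, and for Muc1 -0.16 to 0.09 in PZH vs Control. Relative to epithelial markers, the range was -0.00 to 0.57 for Muc1 in Model + PZH vs PZH and -0.31 to 0.10 in PZH vs Control. For Muc13 it was -1.04 to 0.92 in Model + PZH vs PZH, -0.74 to 0.49 in Model vs Control and -0.12 to 1.84 in PZH vs Control, and for Muc2 -0.44 to 0.26 in Model + PZH vs PZH. For Muc4 it was -0.27 to 0.36 in Model + PZH vs Model, -0.41 to -0.00 in Model + PZH vs PZH, -0.59 to 0.04 in Model vs Control and -0.23 to 0.22 in PZH vs Control.

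For transcripts the ranges in Model vs Control were -0.05 to 2.01 for Muc13-202, -0.06 to 0.01 for Muc2-201 and -0.35 to 0.25 for Muc4-206. In PZH vs Control they were -0.20 to 0.07 for Muc1-201, -0.07 to 2.57 for Muc13-202 and -0.07 to 0.00 for Muc2-201. In Model + PZH vs PZH they were -0.66 to 1.49 for Muc13-202 and -0.04 to 0.06 for Muc20-202. In Model + PZH vs Model they were -0.10 to 0.87 for Muc2-206, -0.01 to 0.08 for Muc20-202 and -0.43 to 0.18 for Muc4-206. Without Control mouse 41, Muc2-204 (1.51, adjusted P = 0.0053) and Muc2-207 (1.27, adjusted P = 0.0429) passed in Model vs Control.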
